A study of Mus musculus with 3 samples.

Results

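Acp5, Ctsk, Atp6v0d2 and Mmp9, 4 genes known for their part in bone resorption by osteoclasts, were described in single cells of mouse bone marrow (BM). They were taken by gene symbol from a targeted panel, of which 125 targets were seen in any library, and all 4 were found in each. The E18.5 EC library held endothelial cells (ECs) that were sorted by flow cytometry for CD31 from embryos at E18.5, near birth, and the description of the series adds endomucin to the sort. For the libraries E18.5 BM cells (fetal marrow, same stage) and Adult BM cells, marrow was depleted of mature haematopoietic cells with lineage antibodies on magnetic beads. The mice were untreated C57/B6 wild types, cells of several animals went into every library, and each group had 1 library, so nothing could be tested across samples. The antibodies named for fetal marrow included Gr-1, a marker of granulocytes, and whether the further CD45 depletion described for adult marrow was used for the adult library is not stated. With a single library each, stage, preparation and sequencing run cannot be told apart.

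Osteoclasts are large multinucleated cells that arise by fusion of haematopoietic precursors of the monocyte and macrophage lineage, and they carry the pan-leukocyte phosphatase CD45, encoded by Ptprc. They seal off a patch of bone surface, acidify it with a vacuolar proton pump and digest the exposed matrix with secreted enzymes. Acp5 encodes tartrate-resistant acid phosphatase, the classical histochemical marker of these cells, which some macrophages also make. Ctsk encodes cathepsin K, the main collagen-degrading protease of the resorption pit, and is also expressed by some periosteal and stromal cells. Atp6v0d2 encodes a subunit of the proton pump that also serves precursor fusion. Mmp9 encodes gelatinase B, a metalloproteinase made by osteoclasts, by neutrophils, which store it in granules, and by some cells of the growth plate.

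The 4 genes lie on different chromosomes of GRCm38 (mm10). The measured transcript of Acp5 is at chr9:22126727-22131815 on the minus strand with 5 exons, that of Ctsk at chr3:95499256-95509362 on the plus strand with 8 exons, that of Atp6v0d2 at chr4:19876841-19922605 on the minus strand with 8 exons, and that of Mmp9 at chr2:164948219-164955850 on the plus strand with 13 exons. RefSeq start windows were matched for 2 of the 4 genes, Acp5 and Ctsk. Because these were found together in cells, the 250 bases before a RefSeq start site (GRCm38.p6) are shown for both, 5′ to 3′ on the strand of the gene. For Acp5 this is the window at chr9:22130599-22130848, which lies in intron 1 of the measured transcript and holds none of its exonic bases. For Ctsk it is chr3:95498960-95499209. Capitals mark matches, on either strand, to 4 short motifs linked to osteoclast factors, namely TCACATG (an E-box read by MITF and its relatives), GAGGAA (the core read by PU.1), GGAAA (the core read by NFAT) and TGANTCA (AP-1).
Acp5: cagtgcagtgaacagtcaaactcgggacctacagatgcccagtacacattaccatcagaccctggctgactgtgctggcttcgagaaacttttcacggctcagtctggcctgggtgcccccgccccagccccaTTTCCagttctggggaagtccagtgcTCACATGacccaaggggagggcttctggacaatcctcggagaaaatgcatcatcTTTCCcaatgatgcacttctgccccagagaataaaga
Ctsk: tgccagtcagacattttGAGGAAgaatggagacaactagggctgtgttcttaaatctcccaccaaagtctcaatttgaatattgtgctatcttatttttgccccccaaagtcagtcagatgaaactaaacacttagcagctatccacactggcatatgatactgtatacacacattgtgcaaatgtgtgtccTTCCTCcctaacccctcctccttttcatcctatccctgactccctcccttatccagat
The Acp5 window held TCACATG 91 bases before the start and GGAAA on the opposite strand at 117 and 37 bases, where it reads TTTCC. In the Ctsk window GAGGAA lay 233 bases before the start and, as TTCCTC, on the opposite strand at 58 bases. GAGGAA and GGAAA share their GGAA and can overlap, which they did not do here. The other windows of Acp5, at chr9:22131866-22132115 and chr9:22135747-22135996, each held 1 GGAAA and no TCACATG. The first of these lies nearest the start of the measured transcript. Among 32851 windows of the same length, 3.501% held TCACATG, 23.3% GAGGAA, 55.6% GGAAA and 6.75% TGANTCA, so the rarest match was the E-box of Acp5. These percentages are per single window, whereas 3 windows of Acp5 were searched. A match of letters describes the window and is not evidence of binding.

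Levels are given as molecules of a gene per 10000 molecules of the whole panel, and a cell was taken to have a gene when it held at least 1 of its molecules. Every interval is an exact 95% interval that covers counting error only. After cells with under 20 molecules or 5 targets were left out, the EC library kept 4038 cells, fetal marrow 12844 and adult marrow 7939, with medians of 83, 97 and 242 molecules. Cells with Ptprc made up 25.4% of E18.5 EC in spite of the CD31 sort, 81.7% of E18.5 BM cells and 21.0% of the adult library, and their medians lay close together at 121, 91 and 96 molecules. By fixed markers 3028 cells of E18.5 EC were endothelial-like. The libraries shared between 38 and 113 cell barcodes pairwise. Each member was read by 1 amplicon at the 3′ end of its transcript, and primer efficiency differs between amplicons, so levels are compared between cells and libraries but not between genes. The molecules had been filtered by distribution-based error correction (DBEC), a step of the pipeline that removes molecules supported by too few reads for their target. Acp5 and Mmp9 were read deeply, with 37.6 and 41.8 reads per molecule in E18.5 BM cells. Ctsk had 1.09 reads per molecule there and 1.20 and 1.05 in E18.5 EC and Adult BM cells, the lowest of all targets ranked in each library, and DBEC removed none of its molecules. Ctsk was therefore counted from few reads per molecule and without this correction, and Atp6v0d2, with 22.1, 12.8 and 10.02 reads per molecule, stood between.

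Acp5 was the member found in most cells with Ptprc. It was present in 679 of 1024 such cells of E18.5 EC (66.3%, 63.3 to 69.2), in 5516 of 10495 of E18.5 BM cells (52.6%, 51.6 to 53.5) and in 237 of 1669 of Adult BM cells (14.2%, 12.6 to 15.97). Its level in these cells was 723, 622 and 12.2 in the same order, against 4.98, 48.0 and 2.09 in cells without Ptprc. The Ptprc cells were higher 145-fold (123 to 173) in E18.5 EC, 13.0-fold (12.5 to 13.5) in E18.5 BM cells and 5.84-fold (5.17 to 6.58) in Adult BM cells. Of all cells with Acp5, those with Ptprc made up 88.3%, 90.2% and 34.6% in the same order. With all molecules counted, most Acp5 cells of the adult library thus had no Ptprc. Adult cells without Ptprc were deeper, with a median of 322.5 molecules against 96, and this share depends on depth. With equal numbers of molecules drawn from every cell, Acp5 was in 7.24% of adult Ptprc cells and 1.30% of the others. With all molecules these shares were 14.2% and 7.15%. Single cells held up to 558 Acp5 molecules in the EC library and 700 in fetal marrow, and no more than 31 in Adult BM cells.

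Mmp9 was found in 72 Ptprc cells of E18.5 EC (7.03%, 5.54 to 8.77), 870 of E18.5 BM cells (8.29%, 7.77 to 8.83) and 98 of Adult BM cells (5.87%, 4.79 to 7.11). The levels were 41.6, 59.1 and 23.0, which is 115-fold, 5.12-fold and 9.44-fold that of the other cells. Mmp9 was the member whose share of Ptprc cells differed least between the libraries. Atp6v0d2 was present in 13 Ptprc cells of E18.5 EC (1.27%, 0.678 to 2.16) and 609 of E18.5 BM cells (5.80%, 5.36 to 6.27). In the adult library it was found in 0 of 1669, which allows a share of up to 0.180%. The level in Ptprc cells was 8.38, 35.9 and 0. In fetal marrow it was 24.99-fold that of the other cells (19.9 to 31.8). In E18.5 EC a single molecule outside Ptprc cells gave a ratio of 230.6, with a counting interval of 40.7 to 9178. Its absence from adult Ptprc cells rested on DBEC, since with molecules before that step, by which more cells also count as having Ptprc, 1.17% of 3241 adult Ptprc cells held it.

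Ctsk was the rarest member where Atp6v0d2 was seen. It was present in 11 Ptprc cells of E18.5 EC (1.07%, 0.537 to 1.91), 346 of E18.5 BM cells (3.30%, 2.96 to 3.66) and 8 of Adult BM cells (0.479%, 0.207 to 0.942). At E18.5 its level in Ptprc cells was 17.6 in both libraries, against 1.09 and 3.01 in the other cells, a ratio of 16.1 (11.05 to 24.4) in E18.5 EC and of 5.84 (4.97 to 6.90) in E18.5 BM cells. The adult order was the opposite, with 0.277 in Ptprc cells and 0.608 in the others (ratio 0.456, 0.195 to 0.907). A larger share of E18.5 BM cells without Ptprc had Ctsk (5.32%, 4.45 to 6.31), at a median depth of 137 molecules, but each held few molecules, and no order is read from these shares. All 4 members passed a 2-fold higher level in Ptprc cells in E18.5 EC and the fetal marrow library, as did 22.5% of all targets compared in the first and 26.0% in the second. Among adult cells Acp5 and Mmp9 passed it, against 32.4% of targets, and Ctsk lay past 2-fold lower, as did 36.9% of targets. In E18.5 EC the molecules of the rarer members came from very few cells, and the 10 richest cells held 92.2% of all Ctsk and 97.0% of all Atp6v0d2.

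**Figure D1:**
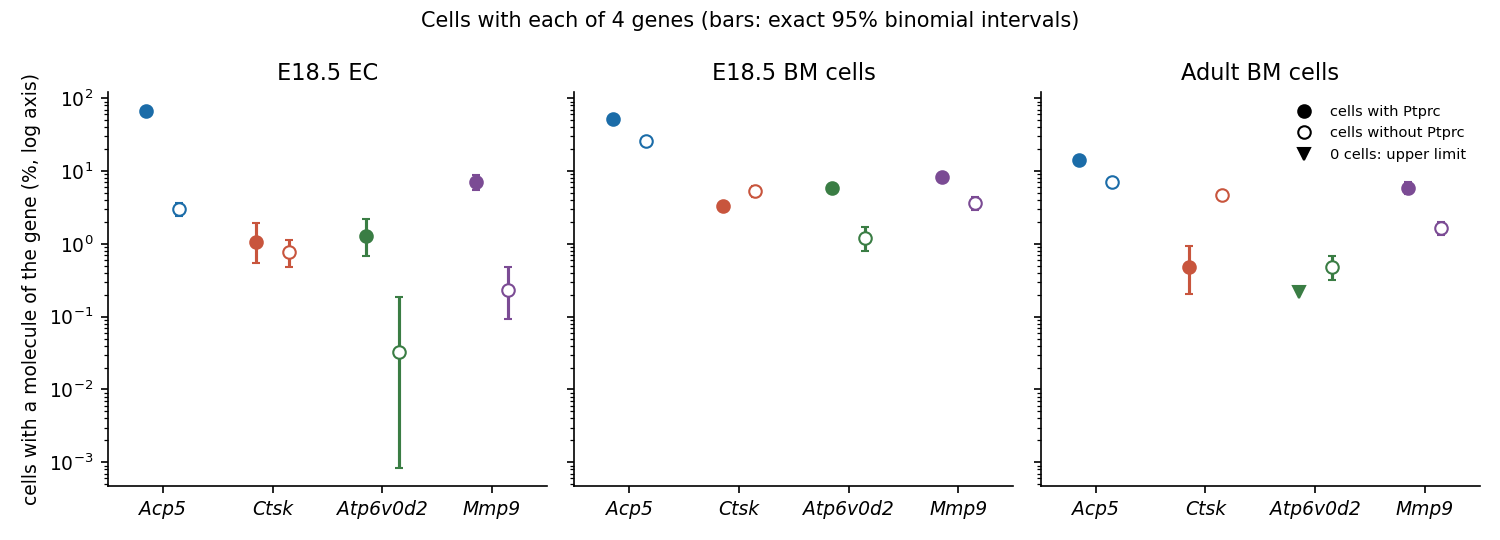
Share of cells with at least 1 molecule of each gene (percent, log axis) among cells with Ptprc (filled) and without (open) in the 3 libraries, with exact 95% binomial intervals. Acp5 falls from 66.3% and 52.6% of Ptprc cells at E18.5 to 14.2% in the adult library, Mmp9 stays between 5.87% and 8.29%, and for adult Atp6v0d2 the triangle marks the upper limit of a share of 0.

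In E18.5 BM cells the members overlapped in an order, with the cells of each rarer gene lying largely within those of the more frequent ones. Of the 346 Ptprc cells with Ctsk, 93.9% (90.9 to 96.2) had Acp5, 87.3% had Mmp9 and 86.1% had Atp6v0d2. Among the Ptprc cells without Ctsk these shares were 51.1%, 5.60% and 3.06%. Of the 609 cells with Atp6v0d2, 96.1% (94.2 to 97.5) had Acp5, 79.0% had Mmp9 and 48.9% had Ctsk, against 49.9%, 3.93% and 0.486% of those without. Of the 870 cells with Mmp9, 89.8% (87.6 to 91.7) had Acp5, 55.3% had Atp6v0d2 and 34.7% had Ctsk, against 49.2%, 1.33% and 0.457%. The reverse shares were small, because Acp5 was also found in many cells with no other member. Of the 5516 Acp5 cells, 14.2% had Mmp9, 10.6% had Atp6v0d2 and 5.89% had Ctsk.

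The order Acp5, Mmp9, Atp6v0d2, Ctsk described most of these cells. A cell follows it when it has no member without all those ahead of it. Of 5647 Ptprc cells with any member, 5385 (95.4%) followed it, of which 4614 had Acp5 alone. Of 905 cells with at least 2 members, 771 (85.2%) did. The order with Mmp9 ahead of Acp5 gave the same count among cells with at least 2 members but 857 among cells with any, and exchanging Ctsk with Atp6v0d2 gave 589 of 905 (65.1%). The cells that followed comprised 290 with Acp5 and Mmp9, 192 with Atp6v0d2 added and 289 with all 4. The largest exceptions were 95 cells with Acp5 and Atp6v0d2 without Mmp9, 86 with Mmp9 alone, 24 with Atp6v0d2 alone and 18 with Ctsk alone. In this library, having Acp5 in over 80% of the Ptprc cells of a target was met by 3.12% of the 96 targets compared, which were Ctsk, Atp6v0d2 and Mmp9, and the median of those targets was 51.0%.

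**Figure D2:**
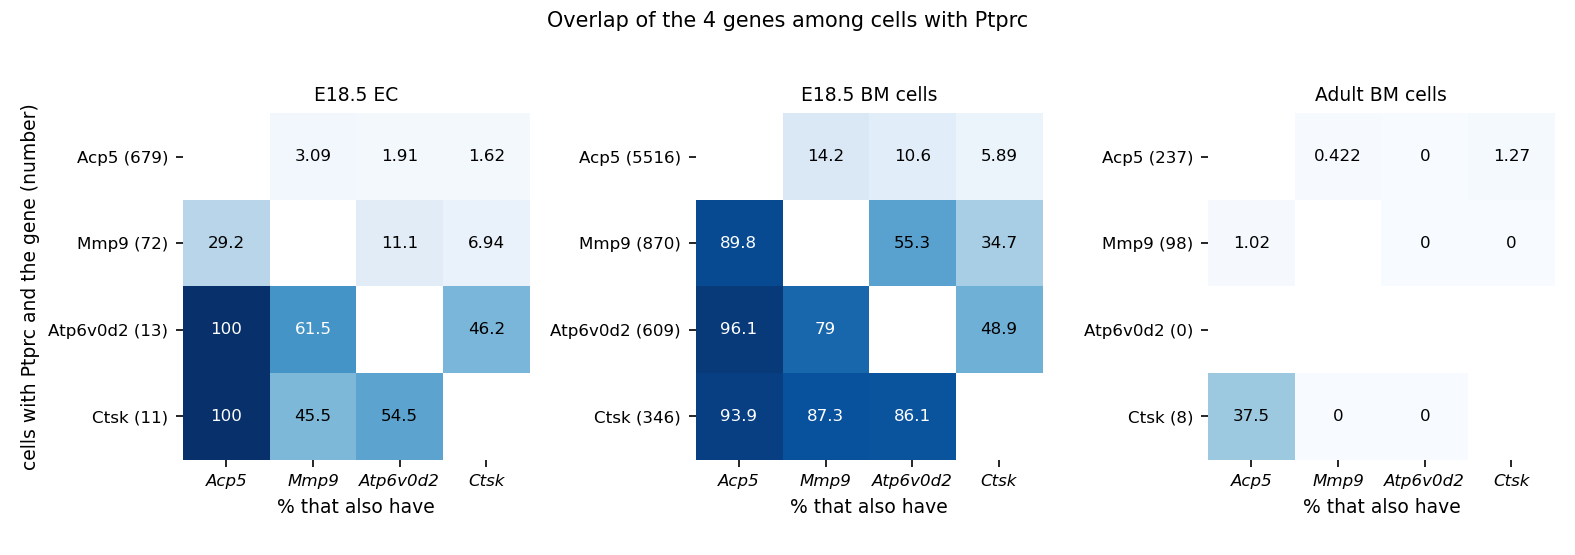
Share of the Ptprc cells with the gene of each row (number of cells in brackets) that also had the gene of each column, in percent, for the 3 libraries. For E18.5 BM cells the shares below the diagonal run from 79.0% to 96.1% and those above it from 5.89% to 55.3%, while in E18.5 EC and Adult BM cells 29.2% and 1.02% of the Mmp9 cells had Acp5.

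Cells with more members were also deeper, with a median of 437 molecules in those with all 4 against 95 in those with Acp5 alone, so the overlap was repeated at equal depth (thinning). With 50 molecules drawn from every cell, which kept 8499 of the 10495 Ptprc cells, Acp5 was present in 96.0% of Ctsk cells, 96.8% of Atp6v0d2 cells and 92.2% of Mmp9 cells, against 39.1%, 37.7% and 36.9% of the cells without each. The lead of Acp5 was partly one of number. With each member thinned to the same 2299 molecules, Acp5 was present in 951 Ptprc cells, Mmp9 in 564, Atp6v0d2 in 534 and Ctsk in 346. Acp5 was then found in 83.5% of Ctsk cells, 78.7% of Atp6v0d2 cells and 69.0% of Mmp9 cells, against 6.52%, 5.33% and 5.66% of the cells without them. The sequence of the 4 by number of cells stayed the same, although Mmp9 and Atp6v0d2 then lay close together.

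In E18.5 BM cells the other members came with the amount of Acp5 in a cell more than with its mere presence. In the thinned Ptprc cells of E18.5 BM cells with 1 Acp5 molecule among 50, Mmp9 was present in 1.35%, Atp6v0d2 in 0.451% and Ctsk in 0.129%, close to the 0.766%, 0.216% and 0.118% of cells with no Acp5. With 5 to 9 Acp5 molecules the shares were 25.9%, 16.8% and 3.03%. With 15 or more they were 62.4% (56.0 to 68.5), 57.4% (50.9 to 63.7) and 39.3% (33.1 to 45.7). Mmp9 and Atp6v0d2 left the baseline at 2 to 4 Acp5 molecules, with 6.06% and 1.99%, where Ctsk was still at 0.0993%. Ctsk reached 14.8% at 10 to 14 molecules. Its share thus rose at higher amounts of Acp5 than those of Mmp9 and Atp6v0d2. Ctsk had few reads per molecule, and whether this limits where it can be seen was not tested. In the unthinned cells the Acp5 level was 136.8 in cells with none of the other 3 members, 760.3 with 1, 2031 with 2 and 3415 with all 3. Levels are shares of all panel molecules of the cells, so a level of 3415 for Acp5 lowers those of the other targets in the same cells. The thinned Ptprc cells of E18.5 EC showed no such steep rise. With 15 or more Acp5 molecules (69 cells), Mmp9 was there in 4.35%, Atp6v0d2 in 2.90% and Ctsk in 5.80%. With no Acp5 these shares were 6.86%, 0% and 0%.

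**Figure D3:**
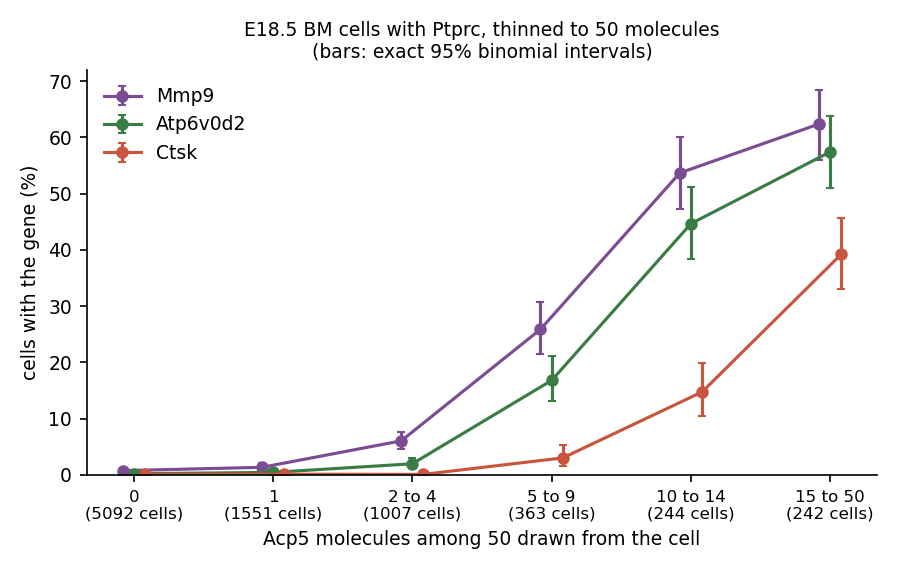
Share of E18.5 BM cells with Ptprc that had Mmp9, Atp6v0d2 or Ctsk (percent, exact 95% binomial intervals) by the number of Acp5 molecules among 50 drawn from the cell. Mmp9 and Atp6v0d2 rise from 6.06% and 1.99% at 2 to 4 molecules to 62.4% and 57.4% at 15 or more, and Ctsk from 0.0993% to 39.3%.

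The targets present in the same cells as each member were ranked by the phi coefficient, a correlation of presence and absence, over the 8499 thinned Ptprc cells of E18.5 BM cells and 86 targets. Cells share a library and the sum of 50 molecules, so these values only describe. The members ranked first for each other. Atp6v0d2 and Mmp9 had 0.445, Atp6v0d2 and Ctsk 0.422, Mmp9 and Ctsk 0.399, and Acp5 had 0.265 with Mmp9 and 0.239 with Atp6v0d2. S100a4, which encodes a calcium-binding protein of motile and myeloid cells, followed for Acp5 with 0.228, ahead of Ctsk, which had 0.154 and ranked sixth. In E18.5 EC (939 thinned cells, 45 targets) Acp5 had 0.322 with Stab1, a scavenger receptor of sinusoidal ECs and macrophages, and 0.293 with S100a4. Mmp9 had -0.111 with Acp5 there and 0.176 with Sgms2, a sphingomyelin synthase. In Adult BM cells (1589 cells, 65 targets) Acp5 led with Lef1, Spp1 and Pecam1, at 0.144, 0.0728 and 0.0549. Mmp9 led with Acta2, the smooth muscle actin gene, at 0.353, and with Sgms2 at 0.250, followed by Prg4 at 0.0570, and it had -0.0556 with Acp5.

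In E18.5 EC Ctsk and Atp6v0d2 kept their place within the Acp5 cells, and Mmp9 did not. All 11 Ptprc cells with Ctsk (71.5 to 100%) and all 13 with Atp6v0d2 (75.3 to 100%) had Acp5, against 65.9% of the cells without the gene in each case. Mmp9 went the other way. Of its 72 Ptprc cells 21 had Acp5 (29.2%, 19.0 to 41.1), against 69.1% of the 952 without Mmp9. Here 13.0% of targets had Acp5 in over 80% of their Ptprc cells, and Mmp9 ranked last of 54. In the adult library 1 of the 98 Ptprc cells with Mmp9 had Acp5 (1.02%, 0.0258 to 5.55), against 15.02% of those without, and Mmp9 again ranked last, of 83 targets, with 0 past 80%. Of the 8 adult Ptprc cells with Ctsk 3 had Acp5, and no adult Ptprc cell held more than 2 of the members. The separation of Mmp9 and Acp5 depended on DBEC, in Adult BM cells also in its direction. With molecules before that step 76.4% of the Mmp9 cells of E18.5 EC and 51.0% of those of Adult BM cells had Acp5. In the adult library this turned the direction, whereas in E18.5 EC the Mmp9 cells still had Acp5 less often than the other Ptprc cells.

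The Mmp9 cells with Ptprc differed in other targets by whether they had Acp5. Those with Acp5 were rich in S100a4. The S100a4 level was 3711 in the 21 such cells of E18.5 EC and 4558 in the 781 of E18.5 BM cells, and that of Srgn, the core protein of the proteoglycan serglycin found in leukocyte granules, was 260.2 and 221. Those without Acp5 had the reverse pattern. In the 51 cells of E18.5 EC and the 97 of Adult BM cells, the S100a4 level was 3.56 and 3.40 and that of Srgn was 5895 and 4011. Mmp9 itself was at 1313 and 559 in these cells, against 346 and 303 in the Acp5 cells of E18.5 EC and E18.5 BM cells. Acta2 was present in 29.4% and 43.3% of the cells with Mmp9 but no Acp5, and Sgms2 in 21.6% and 17.5%. These cells were shallow, with medians of 53 and 74 molecules. The Mmp9 cells with Acp5 of E18.5 EC and E18.5 BM cells had medians of 268 and 283. A gene is more easily missed in shallow cells. At 50 molecules per cell, which left out shallower cells, 26.2% (13.9 to 42.0) of the Mmp9 cells of E18.5 EC had Acp5. Of the other Ptprc cells 53.1% (49.7 to 56.4) had it. In Adult BM cells these shares were 1.18% (0.0298 to 6.38) and 7.58% (6.29 to 9.04). Beyond this, the part of depth was not tested. The 89 Mmp9 cells without Acp5 of E18.5 BM cells had S100a4 at 334, Srgn at 2048 and Mmp9 at 137, the last lower than in the cells of either kind above. Srgn and S100a4 are large parts of the panel molecules in these cells, so their levels are not independent of each other.

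**Figure D4:**
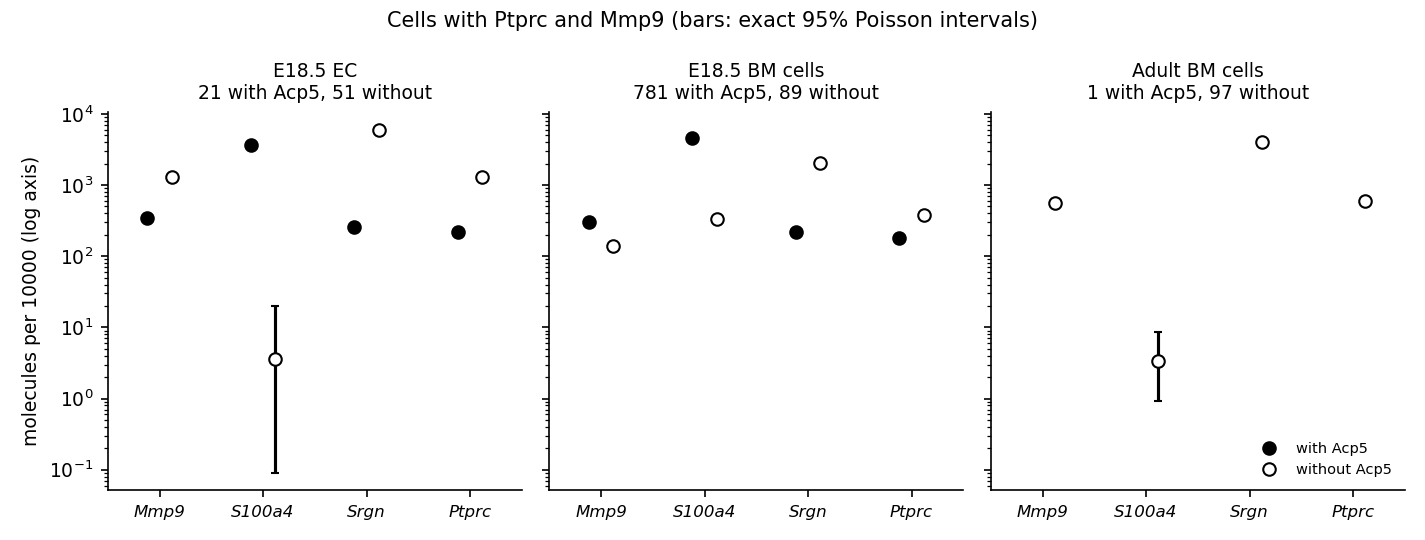
Level of Mmp9, S100a4, Srgn and Ptprc (molecules per 10000 panel molecules, log axis, exact 95% Poisson intervals) in Ptprc cells with Mmp9, split by the presence of Acp5 (filled with, open without). S100a4 is at 3711 and 4558 in the Acp5 cells of the E18.5 libraries and at 3.56 and 3.40 in the cells without Acp5 of E18.5 EC and Adult BM cells, whose single cell with both genes is not drawn.

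To see where the members lay, each library was clustered on targets other than the 4 members and cell cycle genes, and clusters are called by their leading targets or by a class. A class needed at least 3 of its fixed markers at a higher level than in other cells and more markers among the 10 leading targets than any other class, so that some named clusters had only 1 or 2 there. Among E18.5 BM cells a single cluster held most molecules of all 4, although only 22.3% of the thinned cells with Acp5. It was led by S100a4, Wnt6 and Cdk14, met no class rule, had Ptprc in 94.4% of its 904 cells and a median of 258.5 molecules. It held 79.6% of the Acp5 molecules of the library, 89.3% of Ctsk, 95.4% of Atp6v0d2 and 83.0% of Mmp9. The levels there were 2470, 81.3, 169 and 256, and after thinning 93.6%, 16.05%, 36.9% and 44.4% of its cells had each member. Within this cluster all 299 Ctsk cells had Acp5, 97.7% had Mmp9 and 97.0% had Atp6v0d2. Among its 605 cells without Ctsk, 93.9%, 52.7% and 43.5% had these genes. Those shares were also higher than the 51.1%, 5.60% and 3.06% of all Ptprc cells without Ctsk. The Ctsk cells of the cluster were deeper than its other cells (median 416 molecules against 204), and the part of depth was not tested. By the most abundant clustering target of each single cell instead of clusters, S100a4 cells held 84.6% of Acp5.

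Mmp9 and Ctsk were also found outside that cluster, in stromal cells described below. Acp5 reached well beyond it. It was present in 71.8% and 77.0% of the cells of the clusters led by Lef1, Alpl and Lgr5 (54.7% and 63.4% after thinning), at levels of 203 and 268. In the clusters led by Lef1 the other members were each in 1.40% of cells or fewer. The clusters led by Srgn and by Hlf, a stem cell factor, had Acp5 in 46.6% and 33.8% of cells (23.6% and 20.2% after thinning) at levels of 63.0 and 55.2. All of these lay above the endothelial-like cells of the same library, where Acp5 was in 6.04% after thinning at a level of 15.7.

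In E18.5 EC most Acp5 molecules lay in one cluster and most of those of the other members in another. The cluster led by Ecm1 and Spp1, of 265 cells, held 61.2% of Acp5 at a level of 1521 and in 95.8% of cells, while Ctsk, Atp6v0d2 and Mmp9 were each in 3.02% of its cells or fewer. The cluster led by Ptprc, S100a4 and Vcan, of 232 cells, held 25.1% of Acp5 and 88.3% of Ctsk, 91.7% of Atp6v0d2 and 89.9% of Mmp9. Its Ctsk came from 5 cells and its Atp6v0d2 from 8, all of them with Acp5. Its 59 Mmp9 cells had Acp5 in 20.3%. The cluster therefore held both kinds of Mmp9 cell described above. The clusters led by Srgn and by Ptprc and Fzd9 had Acp5 in 75.6% and 46.4% of cells and at most 4 cells with another member.

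**Figure D5:**
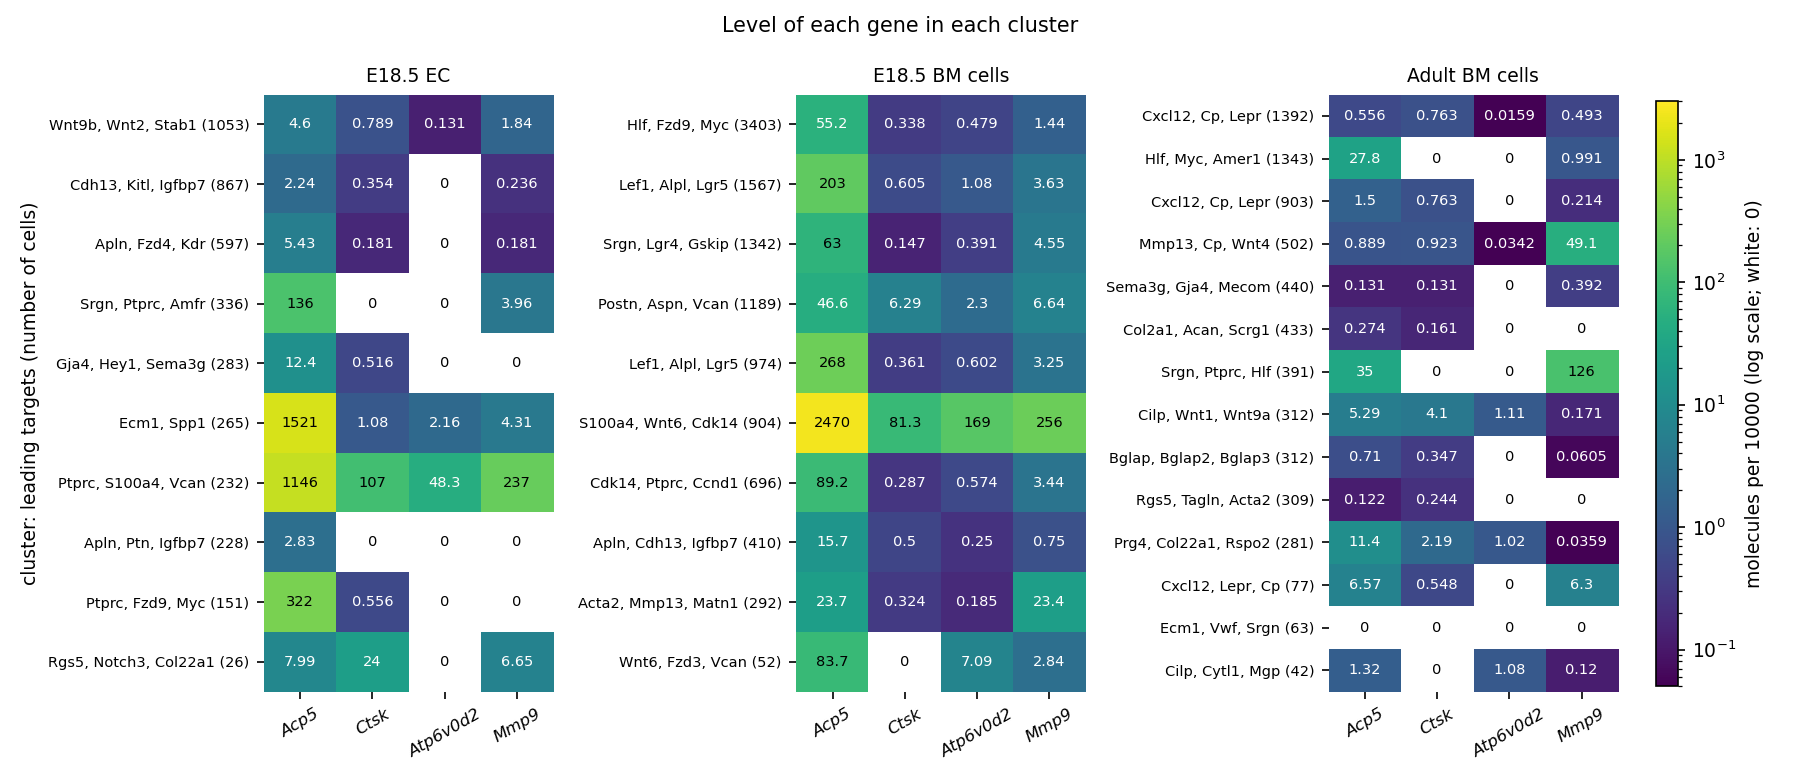
Level of each gene (molecules per 10000 panel molecules, logarithmic colour scale, white for 0) in clusters of the 3 libraries, labelled by leading targets and their number of cells, without those whose first leading target is not reported here. Among E18.5 BM cells the S100a4-led cluster holds the highest level of all 4 genes, whereas in Adult BM cells Mmp9 is highest in the Srgn-led and Mmp13-led clusters and Acp5 in the Srgn-led cluster.

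The members parted company in Adult BM cells. Acp5 was highest in the clusters led by Srgn and Ptprc (level 35.0, 26.3% of 391 cells, 13.9% after thinning) and by Hlf and Myc (27.8, 12.5% of 1343 cells, 7.30%). These 2 clusters had 0 molecules of Ctsk and of Atp6v0d2, which over the 1734 haematopoietic-like cells allows shares of up to 0.173%. Of the 556 Acp5 molecules of these cells, 250 lay in 194 cells without Ptprc, at a level of 121 (107 to 137). After thinning, Acp5 was in 17.7% (12.4 to 24.2) of those cells, against 8.81% of all haematopoietic-like cells. The haematopoietic-like cells held 602 of the 2131 Mmp9 molecules, nearly all in the Srgn-led cluster, where 22.0% of cells had Mmp9 at a level of 126. Most adult Mmp9 molecules lay outside Ptprc cells, although by cells at equal depth Mmp9 was more frequent in Ptprc cells. After thinning it was in 5.35% of them and 0.634% of the others. The mesenchymal-like cluster led by Mmp13, Cp and Wnt4 held 67.4% of the adult Mmp9 molecules in 61 of its 502 cells (12.2%, 7.78% after thinning). The level of Mmp9 in this cluster was 49.1, and 1.59% of the cluster's cells had Ptprc. In these 61 cells Acp5 was present in 8.20%, against 2.72% of the other cells of the cluster. They were deeper, with a median of 815 molecules against 414, and held more of the endothelial genes Pecam1 (level 35.3 against 4.27), Stab1 (11.2 against 1.19) and Kdr (6.55 against 0.554), whose part in this result was not tested. By the most abundant target of each single cell, Mmp13 cells held 43.9% of Mmp9.

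The largest share of the adult molecules of Acp5, Ctsk and Atp6v0d2 lay in a cluster led by Prg4, the lubricin gene of joint surface cells, with Col22a1 and Rspo2. It had 281 cells, Ptprc in 1.78% of them, a median of 1569 molecules and no class name. It held 39.4% of Acp5, 32.6% of Ctsk and 68.7% of Atp6v0d2, at levels of 11.4, 2.19 and 1.02, and 2 molecules of Mmp9. Thinned to 50 molecules, 4.98% of its cells had Acp5, 1.42% Ctsk and 0.712% Atp6v0d2, and it then held 7.18% of the adult cells with Acp5. The 3 genes were found together there as well. Of its 17 Atp6v0d2 cells 14 had Acp5 and 11 had Ctsk, and of its 74 Ctsk cells 73.0% (61.4 to 82.6) had Acp5, against 37.2% of those without. The Ctsk cells of this cluster were deeper (median 2902 molecules against 1061), and the part of depth in this overlap was not tested. In all, 10 adult cells without Ptprc had Acp5, Ctsk and Atp6v0d2 together and none of them Mmp9.

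In endothelial-like cells the members were rare. In E18.5 EC, 88 of 3028 such cells had Acp5 (2.91%, 2.34 to 3.57, and 1.67% after thinning), 11 had Ctsk (0.363%), 1 had Atp6v0d2 (0.0330%) and 6 had Mmp9 (0.198%). For E18.5 BM cells the shares of 410 cells were 10.2% (7.48 to 13.6), 0.488%, 0.244% and 0.488%. In the adult library those of 1579 cells were 0.887%, 0.253%, 0.127% and 0.380%. The endothelial share of Acp5 was thus higher in the library that held most Acp5, and without the endothelial-like cells that had Ptprc it was 2.59%, 8.10% and 0.712%. These values depended on DBEC, since with molecules before that step 62.0% of the endothelial-like cells of E18.5 EC had Acp5. They also serve as a reference, and shares in other cell types are set against them. Whether endothelial-like cells themselves make any of the members was not tested.

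Among stromal cells Ctsk and Mmp9 exceeded that level, while Acp5 did so only through cells with Ptprc. The 1533 mesenchymal-like cells of E18.5 BM cells had Acp5 in 17.8% of cells, Ctsk in 8.68%, Atp6v0d2 in 0.783% and Mmp9 in 5.02%. After thinning these were 5.44% (4.35 to 6.72), 1.55% (0.982 to 2.31), 0.202% and 1.55%, against 6.04% (3.73 to 9.18), 0%, 0.302% and 0% of the endothelial-like cells, where 0 of 331 has an exact upper limit of 1.11%. The levels were 37.9, 3.804, 1.51 and 13.4 in the mesenchymal-like cells and 15.7, 0.4999, 0.24995 and 0.74985 in the endothelial-like ones. Without cells that had Ptprc, Acp5 was lower in the mesenchymal-like cells (5.70, 5.01 to 6.46) than in the endothelial-like ones (9.67, 6.61 to 13.6), whereas Ctsk (2.91, 2.42 to 3.46, against 0.604, 0.0732 to 2.18) and Mmp9 (10.8, 9.89 to 11.9, against 0, up to 1.11) stayed higher. Ctsk lay chiefly in the cluster of 1189 cells led by Postn, the periostin gene, and Aspn, where 10.7% of cells had it at a level of 6.29 and 11.8% of the Ctsk cells had Ptprc, against 36.4% of the Acp5 cells. Its presence there went with Acp5 little, at 19.7% of Ctsk cells against 16.01% of the rest. The Ctsk cells of this cluster held more Spp1 (level 43.8 against 2.88) and Mmp13 (9.23 against 0.885), whose products are osteopontin and a collagenase. Mmp9 lay in the cluster of 292 cells led by Acta2, Mmp13 and Matn1, in 19.5% of cells at a level of 23.4, and the Mmp9 cells had more Mmp13 (1881 against 569) and a greater depth (median 1129 molecules against 320). In E18.5 EC the 26 mesenchymal-like cells, led by Rgs5 and Notch3, had Ctsk in 12 (46.2%, 26.6 to 66.6) at a level of 24.0. Their median was 248.5 molecules. After thinning 12% (2.55 to 31.2) of 25 such cells had Ctsk, against 0.175% (0.0478 to 0.448) of the endothelial-like cells of that library.

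The mesenchymal-like cells of Adult BM cells, 3807 in number, had Acp5 in 5.81%, Ctsk in 5.201%, Atp6v0d2 in 0.263% and Mmp9 in 2.73%. At equal depth these became 0.763% (0.512 to 1.09), 0.526% (0.322 to 0.812), 0.105% and 1.13% (0.820 to 1.52), against 0.469% (0.189 to 0.964), 0.0670% (0.00170 to 0.373), 0% and 0.0670% in the endothelial-like cells. The interval of Mmp9 lay apart from the endothelial one, and those of Acp5 and Ctsk did not. By level Ctsk was higher than in the endothelial-like cells (0.641, 0.559 to 0.733, against 0.236, 0.0768 to 0.552), and Acp5 was not (0.966 against 1.42). Within the class Ctsk was highest in the cluster led by Cilp, Wnt1 and Wnt9a, at a level of 4.10 and in 12.5% of 312 cells (2.27% after thinning), where Acp5 was in 13.1%. The Bglap-led cluster, with osteocalcin genes and a median of 5572.5 molecules, shows the weight of depth. Acp5 was found in 29.2% and Ctsk in 17.9% of its cells, but the levels were 0.710 and 0.347, and 0.962% and 0.321% had them at 50 molecules. The 475 chondrocyte-like cells had thinned shares of 0.211% for Acp5 and for Ctsk.

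Macrophage-like and granulocyte-like cells could not be named in these data, so the presence of the members in them was not determined. These 2 classes needed 3 markers among the leading targets, and the panel as seen held fewer than 3 of the 23 macrophage markers and 0 of the 19 granulocyte markers. The cells with Mmp9 but no Acp5 and the cells with Acp5 but none of the other members are therefore described by the targets they held and not by a cell type.

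Of 23 other genes of osteoclast formation and function, 3 were seen in the panel, namely Spp1 (osteopontin), Mmp13 and Car2 (carbonic anhydrase 2), the last with 1 molecule in all. In E18.5 EC Spp1 was in 38.1% of Ptprc cells with Acp5 at a level of 876, and in 13.9% of those with Mmp9 at 36.9. In fetal marrow it was found in 12.4% of Ptprc cells with Acp5, 31.2% of those with Ctsk, 26.1% of those with Atp6v0d2 and 24.4% of those with Mmp9, against 10.9% of all Ptprc cells. Mmp13 was in 2.30% of Atp6v0d2 cells and 2.31% of Ctsk cells, near the 2.95% of all Ptprc cells. These shares are of cells that differ in depth, and the level of Spp1 was lower in Ctsk cells, at 77.0, than in all Ptprc cells, at 180.1. The other genes of the list, among them the receptor of the osteoclast cytokine RANKL, were not among the targets seen, so no cell was named an osteoclast here.

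The level of the members in Ptprc cells was last compared between fetal marrow (E18.5 BM cells) and adult marrow. All 4 were over 2-fold higher at E18.5 than in the adult library, as were 23.1% of the 104 targets compared, and 0 of 4 were 2-fold lower, as were 31.7% of targets. Acp5 was 50.9-fold higher (45.9 to 56.7), with 622 against 12.2, and Ctsk was 63.4-fold higher (32.1 to 147), with 17.6 against 0.277, where the adult value rests on 8 molecules. Atp6v0d2, with 0 adult molecules, was at least 346-fold higher against a floor of 3 molecules in the library, and the exact lower limit of the ratio was 281. The adult 0 rests on DBEC, as given above. Atp6v0d2, Ctsk and Acp5 held ranks 1, 2 and 3 of all targets by this ratio. Mmp9 was 2.57-fold higher (2.37 to 2.78) and held rank 21. Spp1 and Mmp13, the other pathway genes, were at 0.964 and 0.832 of the adult level, and S100a4 was 20.6-fold higher. Much of this lay in the S100a4-led cluster. With this cluster left out of fetal marrow and the adult library kept whole, the ratio of Acp5 was 12.5 and that of Mmp9 0.385. The cluster held most molecules of both genes, so lower ratios followed from the choice. No order of the stages is read from them. The ratio of cells with Acp5 at 50 molecules each was 5.54, and that of Mmp9 1.09. With molecules before DBEC the ratios of levels were 125 and 13.5. Both the share of cells and the level were thus higher at E18.5 for Acp5. For Mmp9 the ratio of cells was 0.879 at 30 molecules and 5.95 at 100, so that it moved with the depth chosen. E18.5 EC beside E18.5 BM cells gave ratios in Ptprc cells of 1.16 for Acp5, 1.001 for Ctsk, 0.705 for Mmp9 and 0.233 (0.195 to 0.277) for Atp6v0d2. Thus 0 of 4 were 2-fold higher and 1 was 2-fold lower, against 19.4% and 43.7% of targets.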

How the data were processed

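Single cells were captured with the BD Rhapsody system and a custom mouse panel of Wnt pathway genes and cell type markers was amplified. The authors processed each library separately with the Targeted pipeline (version 1.8 per the file headers) against mm10 and deposited, for each cell and target, counts of reads and of molecules, both raw and after correction by recursive substitution (RSEC) and by distribution (DBEC). DBEC molecule counts were used here. Cells under 20 molecules or 5 targets were left out. No doublet caller was run, since the panel is small, so the values may include doublets, and an alternative left out cells with mixed markers. Cells were thinned to 50 molecules without replacement for comparisons at equal depth. Each library was clustered on log-scaled targets without the 4 members and cell cycle genes (11 principal components, 20 neighbours, Leiden resolution 0.5, igraph 0.11.9, scikit-learn 1.9.0), and a cluster was named where 3 or more fixed markers of a class were higher than in other cells and that class had the most markers among its 10 leading targets (macrophage and granulocyte classes needed 3 there). Shares have exact binomial (Clopper-Pearson), levels exact Poisson and ratios exact conditional binomial 95% intervals (scipy 1.17.1). A share of 0 is given with the limit that 3 counts allow, or with its exact upper limit where it stands beside intervals. With 1 library per group no test was made and replicate error is unknown. The genes named are the 4 members, the 3 targets with the highest phi for each, leading targets of their clusters, class markers and the other osteoclast genes seen. The members and lists were chosen with earlier results of these data known. Scripts were tested on simulated data, and 0 columns of other series were met. Some targets of the panel are not reported here.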

Additional observations from a re-analysis of the deposited data

Results flagged for a closer look

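The relation of Mmp9 to Acp5 in Ptprc cells had opposite signs in the libraries. Acp5 was more frequent in Ptprc cells with Mmp9 than without by 40.6 percentage points in E18.5 BM cells, and the difference was -40.0 points in E18.5 EC and -14.0 points in Adult BM cells. Seen from Acp5, Mmp9 was more frequent in cells with Acp5 than without by 12.4 points in E18.5 BM cells, and the difference was -11.7 points in E18.5 EC and -6.35 points in Adult BM cells. The difference between libraries was not tested, because there is 1 library of each kind.

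The level of Atp6v0d2 in Ptprc cells over other cells was 230.6 in E18.5 EC, where 1 molecule lay outside Ptprc cells, and 24.99 in E18.5 BM cells, but 0 in Adult BM cells, where all 83 molecules lay in cells without Ptprc. The same ratio for Ctsk was 16.1, 5.84 and 0.456. These differences were not tested either.

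Among barcodes left out for having too few molecules or targets, Mmp9 was found with 35 of 237 molecules in E18.5 EC, in each of the 5 barcodes, and with 9 molecules in 5 of 40 barcodes of E18.5 BM cells. Of the other members, 1 molecule of Acp5 was found in the left-out barcodes of the 3 libraries.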

How the results depend on the processing

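Of 257 alternatives over 27 results, 132 moved a value by less than its counting interval, 121 moved it by more and 4 reversed its direction. No paired analysis was possible because there is 1 library per group. The overlap with Acp5 in E18.5 BM cells kept its direction in every alternative run. For Ctsk cells the share with Acp5 was 99.2% with at least 2 molecules of a member, 97.0% without Ptprc cells holding 2 endothelial or mesenchymal markers and 83.5% with each member thinned to the same number of molecules. For Atp6v0d2 cells it was 93.4% with RSEC or raw molecules, 99.8% with at least 2 molecules and 78.7% at equal numbers. For Mmp9 cells it was 92.6% with at least 50 molecules per cell, 92.7% with at least 2 molecules of a member, 92.2% after thinning and 69.0% at equal numbers. In E18.5 EC the share of Mmp9 cells with Acp5 was 76.4% with RSEC or raw molecules and 15.5% without cells of mixed markers, with the direction kept. In Adult BM cells it reversed with RSEC or raw molecules (51% for both) and was 0% with at least 2 molecules and 0% without cells of mixed markers, which left 21 cells. The cause was not tested.

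The share of Acp5 in the S100a4-led cluster of E18.5 BM cells was 69.1% with RSEC, 73.5% with raw molecules, 82.4% with the members among the clustering targets and 84.6% cell by cell. Counted as thinned cells with Acp5 it was 22.3%. The share of Acp5 in the adult Prg4-led cluster was 28.3% with RSEC, 33.1% with raw molecules and 7.18% as thinned cells. That of Mmp9 in the adult Mmp13-led cluster was 49.3% with RSEC, 54.5% with raw molecules, 62.7% at Leiden resolution 1.0, 43.9% cell by cell and 31.5% as thinned cells. Acp5 in endothelial-like cells of E18.5 EC was at 62.0% with RSEC, 62.1% with raw molecules, 4.22% cell by cell and 1.67% after thinning.

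The ratio of Acp5 between Ptprc cells of fetal and adult marrow was 124.8 with RSEC, 155 with raw molecules, 37.5 without the 2 percent of cells with the most molecules and 12.5 without the S100a4-led cluster. As a ratio of shares of cells it was 7.96, 5.54 and 3.91 after thinning to 30, 50 and 100 molecules. For Mmp9 it was 13.5 with RSEC, 16.6 with raw molecules, 1.66 without the deepest cells and 2.03 with at least 2 Ptprc molecules. It reversed to 0.385 without the S100a4-led cluster and, as a share of cells, to 0.879 after thinning to 30 molecules, with 1.09 and 5.95 after thinning to 50 and 100. Atp6v0d2 gave no ratio, having 0 adult molecules. RSEC and raw molecules also change which cells have Ptprc and how they cluster. Equal numbers of molecules, shared barcodes and leaving out the S100a4-led cluster were chosen after seeing the data. That cluster was left out of E18.5 BM cells only, with the adult library kept whole, so lower ratios followed from the choice. Removing barcodes that another library holds changed none of the 26 results beyond counting error. Leaving out Ptprc cells of endothelial, mesenchymal or chondrocyte classes was not run for the S100a4-led cluster, which is of none of these classes. Ctsk had the fewest reads per molecule of the targets ranked, at 1.05 to 1.20, and the cause was not tested.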
